A study of Homo sapiens with 10 samples.

Results

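The 6 loci described here are windows around DUSP1, DUSP4, DUSP5, DUSP6, SPRY2, and SPRY4, the genes of inhibitors that act back on ERK signalling. Binding of 5 proteins was mapped by ChIP-seq in MCF10A-ER-Src cells, a breast epithelial line in which the Src oncoprotein is fused to the hormone binding part of the estrogen receptor, so that tamoxifen switches it on. The proteins are STAT3, NFKB1, a subunit of NF-κB, and 3 subunits of AP-1, namely FOS, JUN, and JUNB. Each protein was mapped once in non-transformed cells given ethanol and once in transformed cells given 1 μM 4-hydroxytamoxifen for 12 h, and both groups carry the ER-Src fusion. The catalogue number of the STAT3 antibody in the labels belongs to one sold against the tyrosine-phosphorylated form. By the library names in the list headers, ethanol was given for 36 h and tamoxifen for 12 h, so the time of sampling cannot be told apart from the treatment. The same names carry a replicate letter, which is equal in both states for FOS, JUN, and NFKB1 and differs for JUNB and STAT3, and whether the states of a protein were prepared together is not given in the sources used here. With 1 library per protein and state there is no replicate, and no test of any difference is given. Intervals of levels and ratios cover counting error of reads only. Those of shares and medians cover the sampling of sites only, with sites taken as independent. None covers the spread between cultures. The 10 lists hold peaks and no expression values, so the cell line could not be checked against marker genes.

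The members are all peaks whose summit, the position of highest read coverage, lay in 1 of 6 windows of hg19. The windows are chr5:172160000-172230000 for DUSP1, chr8:29150000-29250000 for DUSP4, chr10:112220000-112310000 for DUSP5, chr12:89700000-89790000 for DUSP6, chr13:80850000-80970000 for SPRY2, and chr5:141660000-141740000 for SPRY4. These 550 kb held 516 of the 879550 peaks on chromosomes 1 to 22 and X. Windows of 150 bp on each side of each summit were joined where they overlapped, which gave 110 sites in the 6 loci of 248897 sites in the genome. A window is not assigned to its gene by the data, and the neighbouring genes within it were not determined. Filtered reads ranged from 4837474 to 22082403 per library, and the NFKB1 library of transformed cells was 2.0 times as deep as that of non-transformed cells. Signal is given as scaled pileup, the number of extended reads over a summit per 1000000 filtered reads of the library, abbreviated below as RPM. Most named sites were picked by their highest RPM in any library or by an extreme ratio. The ratio of the picked protein then uses the value that picked the site, and its interval does not cover that choice.

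ERK is the last kinase of the cascade from growth factor receptors through RAS, RAF, and MEK, and Src can feed into it. DUSP1, DUSP4, DUSP5, and DUSP6 are dual-specificity phosphatases, which remove phosphate from the activating threonine and tyrosine of MAP kinases. DUSP1 acts in the nucleus on the stress-activated kinases as well as on ERK, DUSP4 and DUSP5 are also nuclear, and DUSP6 is cytoplasmic and prefers ERK. SPRY2 and SPRY4 are Sprouty proteins, which dampen signalling from receptor tyrosine kinases at the level of RAS and RAF. These genes are known as growth factor responsive, and several of them are switched on by ERK signalling itself, which closes a negative feedback loop. AP-1 binds TGANTCA and, less often, the related cAMP response element TGACGTCA. STAT3 is activated by cytokine receptors and by Src and binds TTCNNNGAA, and NF-κB dimers bind sequences of the form GGGANNNNCC.

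The promoters of DUSP1 and DUSP6 are shown because they are the members whose upstream sequence held 1 of these 4 motifs. RefSeq promoter sequences (GRCh38.p14) were listed for 4 of the 6 members, in 6 entries, and the 250 bases before each start were searched on both strands. In the DUSP1 promoter, chr5:172771196-172771445 on the minus strand, the capitals mark the palindromic cAMP response element at -125 to -118, a motif that 1.65% of 35116 RefSeq promoters hold. In the DUSP6 promoter, chr12:89352502-89352751 on the minus strand, the capitals at -86 to -77 mark a match to GGGANNNNCC on the opposite strand, a motif that 22.6% of promoters hold. TGANTCA and TTCNNNGAA, each held by 6.57% of promoters, were in none of the 6 entries. The peak lists are in hg19, so whether a peak covers either sequence was not determined.
DUSP1: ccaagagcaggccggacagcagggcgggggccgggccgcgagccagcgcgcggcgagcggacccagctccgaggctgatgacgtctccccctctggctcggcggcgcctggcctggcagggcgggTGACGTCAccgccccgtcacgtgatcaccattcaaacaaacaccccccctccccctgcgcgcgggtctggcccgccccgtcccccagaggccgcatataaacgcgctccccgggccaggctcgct
DUSP6: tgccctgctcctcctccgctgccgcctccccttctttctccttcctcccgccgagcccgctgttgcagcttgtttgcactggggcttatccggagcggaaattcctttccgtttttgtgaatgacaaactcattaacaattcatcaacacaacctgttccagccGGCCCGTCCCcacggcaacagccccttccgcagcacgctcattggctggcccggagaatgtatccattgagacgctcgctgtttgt

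Peaks were denser in the 6 loci than in the genome for every library, and the DUSP1 window accounted for much of the excess. There were 20 sites per 100 kb in the 6 loci and 8.21 in the genome. The DUSP1 window held 32 sites, or 45.7 per 100 kb, with 216 peaks, which is 41.9% of the peaks in 12.7% of the length. DUSP6 held 19 sites with 89 peaks, DUSP5 held 18 with 69, DUSP4 held 18 with 52, SPRY4 held 12 with 55, and SPRY2 held 11 with 35. Without DUSP1 the other 5 windows held 16.2 sites per 100 kb, and SPRY2, at 9.17, was the closest to the genome. Every one of the 10 libraries had its highest peak density at DUSP1, from 15.7 per 100 kb for NFKB1 in non-transformed cells to 40 for FOS in transformed cells. The SPRY2 window held no NFKB1 and no STAT3 peak in non-transformed cells, and the DUSP4 window held no NFKB1 peak in that state. At the depth of the NFKB1 library of non-transformed cells, the weakest peak in its whole list had 4 reads, or 0.827 RPM, so weaker binding was not detectable there.

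**Figure D1:**
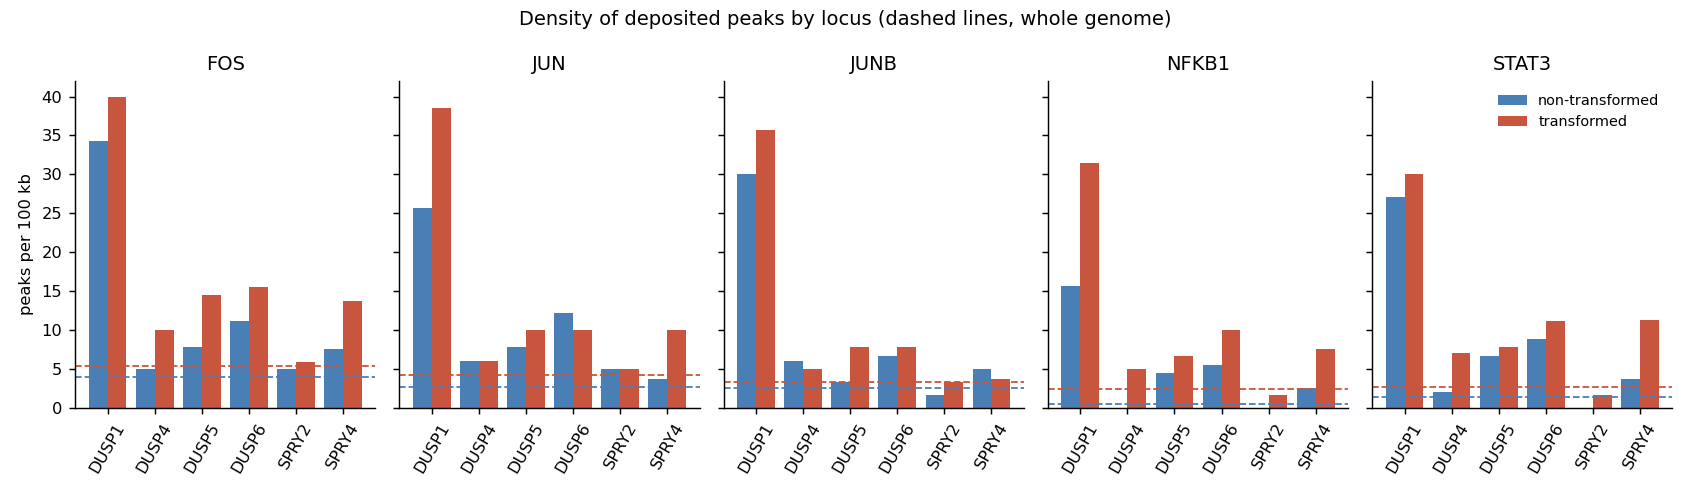
Number of deposited peaks per 100 kb (vertical axis) in each of the 6 windows, with 1 panel per protein, blue bars for non-transformed and red bars for transformed cells, and dashed lines at the density over the whole genome. DUSP1 is the highest window in every panel, and SPRY2 has no bar for NFKB1 or STAT3 in non-transformed cells.

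By the 10 peak densities, the DUSP1 window was unlike the others: its nearest window, DUSP6, differed by a mean of 21.0 peaks per 100 kb over the 10 libraries. The other windows lay close together. DUSP5 and SPRY4 were nearest to each other, with a mean difference of 1.99 peaks per 100 kb, DUSP4 and SPRY2 were nearest to each other with 2.28, and DUSP6 was nearest to DUSP5 with 2.22. Sites present in all 10 lists numbered 10, or 9.09% of the 110 sites against 2.22% of the sites of the genome. DUSP1 held 8 of them and DUSP6 the other 2, so that in the 5 windows without DUSP1 the share was 2.56%. At the other end, 31 sites (28.2%) were in only 1 list, against 38.7% in the genome, and these were 5 of 32 sites at DUSP1 and 5 of 11 at SPRY2.

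**Figure D2:**
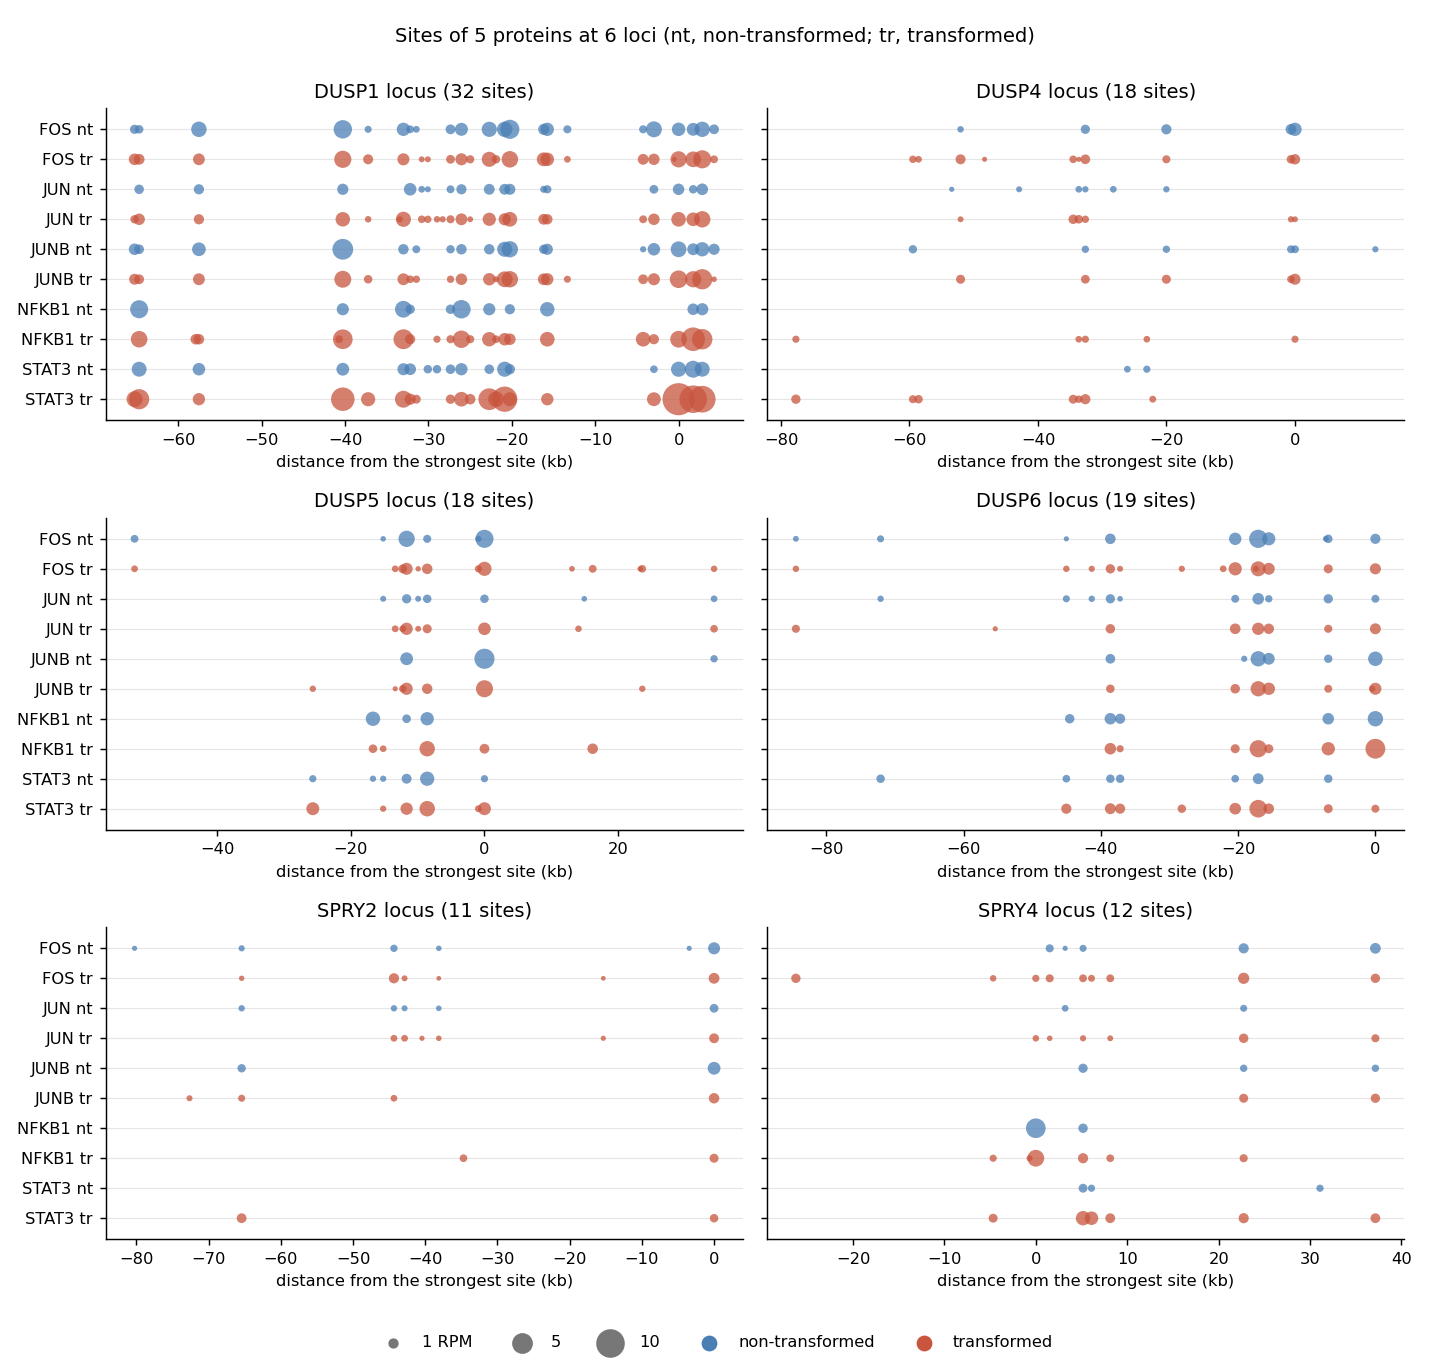
Sites in the 6 windows by distance from the strongest site of the window in kb (horizontal axis) for the 10 libraries (rows; nt, non-transformed; tr, transformed), with the area of a point proportional to RPM. DUSP1 has points along the window in every row, with the largest points, up to 14.4 RPM, in the row of STAT3 in transformed cells, and the NFKB1 and STAT3 rows of SPRY2 in non-transformed cells are empty.

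DUSP1 encodes a nuclear phosphatase of ERK and of the stress-activated kinases. Its strongest sites lay within 3 kb of each other near one end of the window, and all 3 were led by STAT3 in transformed cells. At the strongest, chr5:172225468-172225673, non-transformed cells had FOS at 2.52 RPM, JUN at 1.83, JUNB at 3.49, and STAT3 at 3.20, with no NFKB1 peak. In transformed cells the same site had FOS at 3.67, JUN at 2.98, JUNB at 4.32, NFKB1 at 3.93, and STAT3 at 14.4. STAT3 stood far above the others only in the transformed state, where its peak ranked 51 of 80265 by q-value, and its ratio between states was 4.49 (95% counting interval 3.07 to 6.73). The STAT3 summit lay at 172225656 before transformation and at 172225468 after it. This ratio thus compares different positions within a joined site. The second site, chr5:172227211-172227434, had FOS at 2.31, JUN at 1.01, JUNB at 1.96, NFKB1 at 1.86, and STAT3 at 4.03 in non-transformed cells. Transformed cells had 3.44, 2.6, 3.68, 7.75, and 10.6 RPM, respectively. All 5 proteins were higher in transformed cells there, with the highest ratios among all members for JUN, at 2.58 (1.44 to 4.86), and for NFKB1, at 4.17 (2.08 to 9.47). The STAT3 summit of this second site moved from 172227416 before transformation to 172227211 after it, and the JUNB summit from 172227423 to 172227295. Its STAT3 and JUNB ratios thus also compare different positions. The third site, chr5:172228373-172228444, had FOS at 3.28, JUN at 1.89, JUNB at 2.83, NFKB1 at 2.07, and STAT3 at 3.11 in non-transformed cells. After transformation the values were 4.57, 3.74, 5.71, 5.79, and 9.92 RPM. The 5 counting intervals of the ratio lay above 1 at this site, as they did at the second.

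The rest of the DUSP1 window held other strongly occupied sites with a different balance of proteins. The site with the highest STAT3 ratio of all members, chr5:172202688-172203038, went from 1.28 to 6.58 RPM, a ratio of 5.14 (2.83 to 9.96), while FOS was at 3.22 in non-transformed and 3.17 in transformed cells. At chr5:172185219-172185355, JUNB was at 5.99 RPM in non-transformed cells, its highest level in the 6 loci, and at 4.0 in transformed cells, a ratio of 0.667 (0.458 to 0.976). At the same site STAT3 went from 2.29 to 7.70 RPM, a ratio of 3.36 (2.10 to 5.55), and NFKB1 from 2.07 to 5.37, a ratio of 2.6 (1.31 to 5.74). At chr5:172205291-172205376, FOS was the leading protein in non-transformed cells, at 5.10 RPM against 1.46 for STAT3. At chr5:172199138-172199909, NFKB1 led in both states, with 4.75 in non-transformed and 4.24 in transformed cells, a ratio of 0.891 (0.522 to 1.56). This joined site spans 771 bp. Its NFKB1 summits were at 172199532 and 172199423 and its JUNB summits at 172199880 and 172199909, in non-transformed and transformed cells. At chr5:172198041-172198390, which was in all 10 lists, all 5 counting intervals of the ratio spanned 1, and the highest level was 1.34 RPM, for FOS in non-transformed cells. The lowest ratios for FOS and JUNB among all members were also at DUSP1. FOS went from 3.55 to 1.81 RPM at chr5:172222564-172222654, a ratio of 0.511 (0.336 to 0.768), and JUNB from 1.74 to 0.444 at chr5:172229791-172229862, a ratio of 0.255 (0.0887 to 0.655). The lowest STAT3 ratio, 0.929 (0.453 to 1.87), was at chr5:172193077-172193662. The highest for JUNB, 2.45 (0.898 to 8.31), was at chr5:172221272-172221369.

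DUSP4, a nuclear phosphatase, had no site in all 10 lists, and its 3 strongest sites were led by FOS in non-transformed cells. Its strongest site, chr8:29231525-29231564, had 2.47 RPM for FOS and 0.872 for JUNB in non-transformed cells, and no other peak. The transformed library values were FOS at 1.49, JUN at 0.488, JUNB at 1.71, and NFKB1 at 0.724. STAT3 was in neither list there, and FOS was lower in transformed cells, with a ratio of 0.605 (0.375 to 0.967). The second site, chr8:29230893-29230939 beside it, had FOS at 1.61 and JUNB at 0.872 in non-transformed and FOS at 1.04, JUN at 0.542, and JUNB at 0.825 in transformed cells. The third, chr8:29211489-29211552, had FOS at 1.45, JUN at 0.568, and JUNB at 0.763 in non-transformed and FOS at 0.906 and JUNB at 1.14 in transformed cells. These 3 sites held no STAT3 peak in either state. The 7 STAT3 sites of transformed cells lay elsewhere in the window, none of them was a STAT3 site in non-transformed cells, and their levels ran from 0.669 to 1.45 RPM. The highest FOS ratio among all members, 2.38 (1.16 to 5.24), was at chr8:29179488-29179505, where FOS went from 0.591 to 1.40 RPM.

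DUSP5, a nuclear phosphatase for ERK, carried 2 sites led by FOS or JUNB in non-transformed cells and 1 led by NFKB1 and STAT3. The strongest site, chr10:112272717-112272766, had FOS at 4.57 RPM, JUN at 1.01, JUNB at 5.66, and STAT3 at 0.732 in non-transformed cells. Transformed cells showed FOS at 2.81, JUN at 2.22, JUNB at 4.06, NFKB1 at 1.34, and STAT3 at 2.34. FOS was lower in transformed cells, with a ratio of 0.615 (0.436 to 0.863), whereas JUN was higher, at 2.20 (1.21 to 4.2), and STAT3 was higher, at 3.20 (1.36 to 8.35). The second site, chr10:112260912-112261242, had FOS at 3.71, JUN at 1.20, JUNB at 2.29, NFKB1 at 1.03, and STAT3 at 1.37 in non-transformed cells. With tamoxifen the values were FOS at 2.04, JUN at 2.11, JUNB at 2.10, and STAT3 at 2.12, with no NFKB1 peak. The FOS ratio was again below 1, at 0.550 (0.369 to 0.812), at a site ranked by its FOS level in non-transformed cells. The third site, chr10:112263947-112264381, had FOS at 0.913, JUN at 1.01, NFKB1 at 2.48, and STAT3 at 2.84 in non-transformed cells, without JUNB. The values in transformed cells were FOS at 1.54, JUN at 1.14, JUNB at 1.52, NFKB1 at 3.31, and STAT3 at 3.35. NFKB1 and STAT3 led it in both states, and the counting intervals of its 4 ratios all spanned 1. The lowest NFKB1 ratio among all members, 0.357 (0.142 to 0.865), was also at DUSP5, at chr10:112255925-112256148, where NFKB1 went from 2.89 to 1.03 RPM.

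DUSP6, the cytoplasmic phosphatase for ERK, was the second most densely occupied window and held the 2 sites in all 10 lists that lay outside DUSP1. Its strongest site, chr12:89785121-89785251, was led by NFKB1. It had FOS at 1.45 RPM, JUN at 0.883, JUNB at 2.94, and NFKB1 at 3.31 in non-transformed cells, and no STAT3 peak. Transformed cells had FOS at 1.72, JUN at 1.68, JUNB at 2.03, NFKB1 at 5.48, and STAT3 at 0.892. The ratio for NFKB1 was 1.66 (0.932 to 3.10), an interval that includes 1. The second site, chr12:89768106-89768131, had FOS at 4.62, JUN at 1.89, JUNB at 3.27, and STAT3 at 1.65 in non-transformed cells, without NFKB1. Transformed cells had FOS at 3.12, JUN at 2.11, JUNB at 3.24, NFKB1 at 4.13, and STAT3 at 4.35. All 9 summits of this site lay within 25 bp. FOS led before transformation and NFKB1 and STAT3 led after it, with ratios of 0.677 (0.486 to 0.94) for FOS and 2.64 (1.48 to 4.90) for STAT3.

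The 2 DUSP6 sites in all 10 lists were weaker and more even. At chr12:89778297-89778343 non-transformed cells had FOS at 1.02, JUN at 1.20, JUNB at 0.98, NFKB1 at 1.86, and STAT3 at 1.01. Transformed cells had FOS at 1.13, JUN at 0.921, JUNB at 0.889, NFKB1 at 2.48, and STAT3 at 1.11 there, and the JUN ratio, 0.769 (0.375 to 1.56), was the lowest for JUN among all members. At chr12:89746321-89746826 the levels ran from 1.01 to 1.86 RPM in non-transformed and from 1.02 to 1.86 in transformed cells. NFKB1 was the highest protein at both sites in both states, and all 10 counting intervals of their ratios spanned 1. In non-transformed cells NFKB1 had 9 reads at each site. The counting interval of that level, 0.851 to 3.53 RPM, includes the levels of the other proteins there. At the latter site in transformed cells NFKB1 was at 1.86 and STAT3 at 1.67 RPM.

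SPRY2, a Sprouty inhibitor of receptor signalling, was the most sparsely occupied window. Its strongest site, chr13:80953550-80953609, had FOS at 2.04 RPM, JUN at 1.07, and JUNB at 2.29 in non-transformed cells. Transformed cells had FOS at 1.63, JUN at 1.36, JUNB at 1.52, NFKB1 at 1.14, and STAT3 at 1.00. The 3 AP-1 subunits were present in both states, and NFKB1 and STAT3 were listed only in transformed cells. The second site, chr13:80909211-80909279, had FOS at 0.752 and JUN at 0.568 in non-transformed cells, and FOS at 1.45, JUN at 0.650, and JUNB at 0.635 in transformed cells. The third, chr13:80888106-80888203, had FOS at 0.537, JUN at 0.568, and JUNB at 0.98 in non-transformed cells, and FOS at 0.408, JUNB at 0.698, and STAT3 at 1.34 in transformed cells. It was, with the strongest site, 1 of the 2 STAT3 sites of this window, both of which had AP-1 peaks before transformation.

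SPRY4, the other Sprouty gene, had a strongest site led by NFKB1 with little AP-1, whereas the strongest sites of the other 5 windows each had at least 2 AP-1 subunits in non-transformed cells. At chr5:141699484-141699538, NFKB1 was the only protein listed in non-transformed cells, with 5.37 RPM. Transformed cells had NFKB1 at 3.93, FOS at 0.725, and JUN at 0.596, and no JUNB or STAT3. The NFKB1 ratio was 0.731 (0.432 to 1.25), an interval that includes 1. The second site, chr5:141704598-141704759, had FOS at 0.698, JUNB at 1.20, NFKB1 at 1.24, and STAT3 at 1.10 in non-transformed cells. Transformed cells had FOS at 0.860, JUN at 0.542, NFKB1 at 1.45, and STAT3 at 2.90. The third, chr5:141705268-141705937, had STAT3 at 0.732 alone in non-transformed cells, and FOS at 0.679 and STAT3 at 2.57 in transformed cells. STAT3 led the latter pair of sites in transformed cells, with ratios of 2.64 (1.29 to 5.75) and 3.50 (1.51 to 9.06). At the third site the STAT3 summit was at 141705503 in non-transformed cells, with 8 reads, and at 141705268 in transformed cells. Its ratio therefore compares different positions within a joined site.

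Across the 6 loci, scaled pileup was higher in transformed cells mainly for STAT3 and JUN, with intervals of the median that include the genome median for all 5 proteins. The order of the proteins turned with the measure of signal: by the fold enrichment of MACS the median was highest for NFKB1, at 1.74, with STAT3 at 1.60 and JUN at 1.45. At sites with a peak in both states, the median ratio of transformed to non-transformed signal was 1.99 for STAT3 (order-statistic 95% interval 1.44 to 3.19, n = 27 sites) against 1.71 over the 30047 such sites of the genome. For STAT3, 13 of 27 sites were at least 2-fold higher in transformed cells, against 39.1% of genome sites, and none was at least 2-fold lower, against 0.978%. The median ratio for JUN was 1.47 (1.26 to 1.72, n = 34) against 1.29 in the genome, and 31 of 34 sites were above 1, against 74.5% of genome sites. For JUN, 4 of 34 sites were at least 2-fold higher (14.8% in the genome) and none was at least 2-fold lower (0.807%). FOS and JUNB were balanced, with medians of 0.984 (0.785 to 1.22, n = 45) and 1.02 (0.891 to 1.29, n = 34) against 0.949 and 0.964 in the genome. At least 2-fold higher were 2 of 45 FOS sites (8.54%) and 2 of 34 JUNB sites (7.74%), and at least 2-fold lower were 0 FOS sites (5.99%) and 1 JUNB site (7.02%). NFKB1 had a median of 1.17 (0.841 to 1.40, n = 19) against 1.03, with 3 of 19 sites at least 2-fold higher (9.26%) and 1 at least 2-fold lower (5.92%).

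These medians depended in part on DUSP1, which held 14 of the 27 STAT3 sites. Without DUSP1 the STAT3 median was 1.76 (n = 13), with all 13 ratios above 1, and the JUN median was 1.29 (n = 18), equal to that of the genome. Site by site, the counting interval of the ratio lay above 1 at 14 of 27 STAT3 sites (51.9%, Wilson 95% interval 34.0 to 69.3%), against 39% in the genome, and below 1 at 0, against 0.572%. For JUN it lay above 1 at 7 of 34 sites (14.9% in the genome) and below 1 at 0 (0.396%). For FOS it lay above 1 at 5 (9.6%) and below 1 at 6 (12.6%) of 45 sites, for JUNB at 2 (7.05%) and 2 (6.66%) of 34, and for NFKB1 at 3 (6.41%) and 1 (4.67%) of 19. Each genome share of these counting intervals lay within the Wilson interval of the corresponding share in the 6 loci. For JUN ratios above 1, at 31 of 34 sites, the Wilson interval was 77.04 to 96.95%, and the genome share of 74.5% lay below it. That difference was not tested. Scaled so that the median over all genome sites was 1, the medians of STAT3, JUN, and NFKB1 lay close together, at 1.17, 1.14, and 1.13. The lists of STAT3 were made with an estimated fragment of 150 bp in non-transformed and 119 bp in transformed cells, and a longer fragment adds reads to a pileup. Because ChIP-seq averages over cells, a higher signal in each cell cannot be told apart from binding in more cells. Only 1 read per position was kept, which limits the pileup at the strongest sites.

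**Figure D3:**
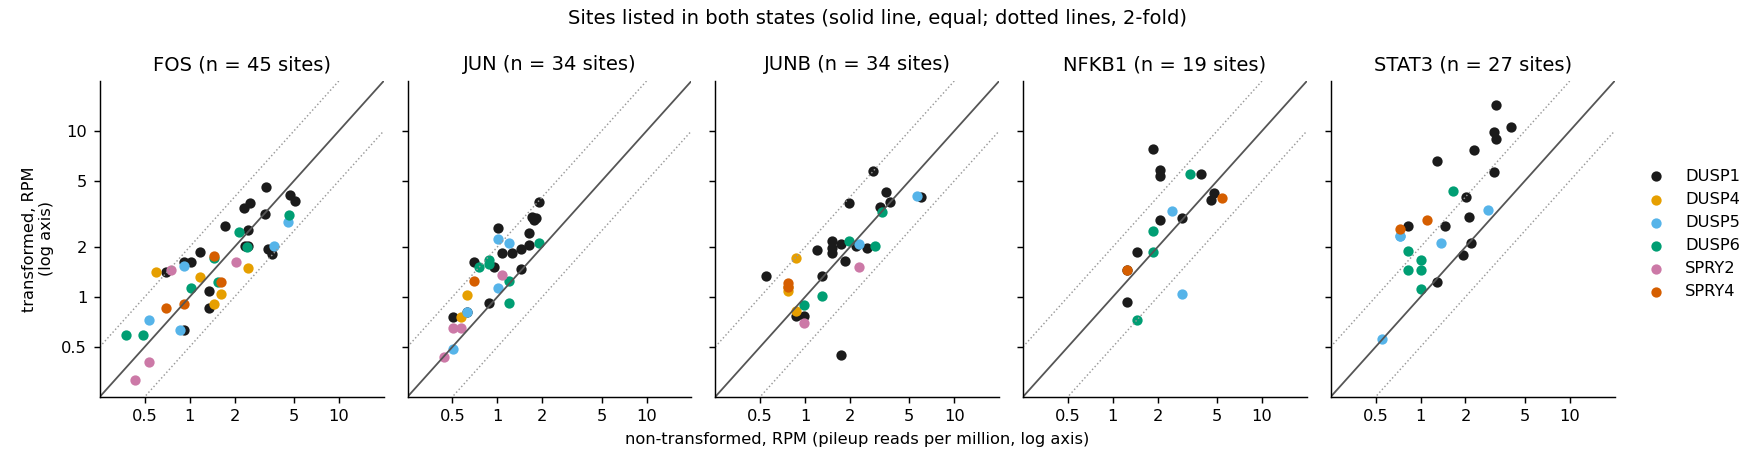
RPM at sites with a peak in both states, with non-transformed cells on the horizontal and transformed cells on the vertical axis (both log), 1 panel per protein, and colours for the 6 windows. The solid line marks equality and the dotted lines a 2-fold difference, and 24 of the 27 STAT3 points and 31 of the 34 JUN points lie above the solid line, against 83.2% and 74.5% of such sites in the genome.

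With all deposited peaks, more sites were listed in transformed than in non-transformed cells for every protein. The share of new sites was lower here than in the genome for NFKB1, JUN, JUNB, and STAT3. The genome share lay outside the Wilson interval for NFKB1 and inside it for the others. These intervals take sites as independent, although 21 of the 48 NFKB1 sites lay in the DUSP1 window. Whether any protein differed from the genome was not tested. With only peaks of at least 2 RPM the direction of the counts turned for FOS, with 19 peaks in non-transformed and 14 in transformed cells. Of the 48 NFKB1 sites of either state, 27 (56.2%, Wilson 95% interval 42.3 to 69.3%) were listed only in transformed cells, against 82% in the genome, and 2 only in non-transformed cells (1.79%). Of the 57 STAT3 sites, 23 (40.4%, 28.6 to 53.3%) were listed only in transformed cells, against 53%, which the interval still includes, and 7 only in non-transformed cells (13.2%). For FOS it was 30 of 84 only in transformed (34.5%) and 9 only in non-transformed cells (10.7%), which are close to the shares of the genome. For JUN, 24 of 71 (33.8%, 23.9 to 45.4%) were in transformed cells only, against 43.2%, and 13 in non-transformed cells only (11.6%). For JUNB it was 14 of 53 (26.4%, 16.4 to 39.6%), against 37.3%, and 5 (15.8%). The part of depth in these counts was not tested. The transformed library was 2.0 times as deep for NFKB1, 1.72 times for JUNB, 1.19 times for FOS, and 1.16 times for JUN, but 0.821 times for STAT3.

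**Figure D4:**
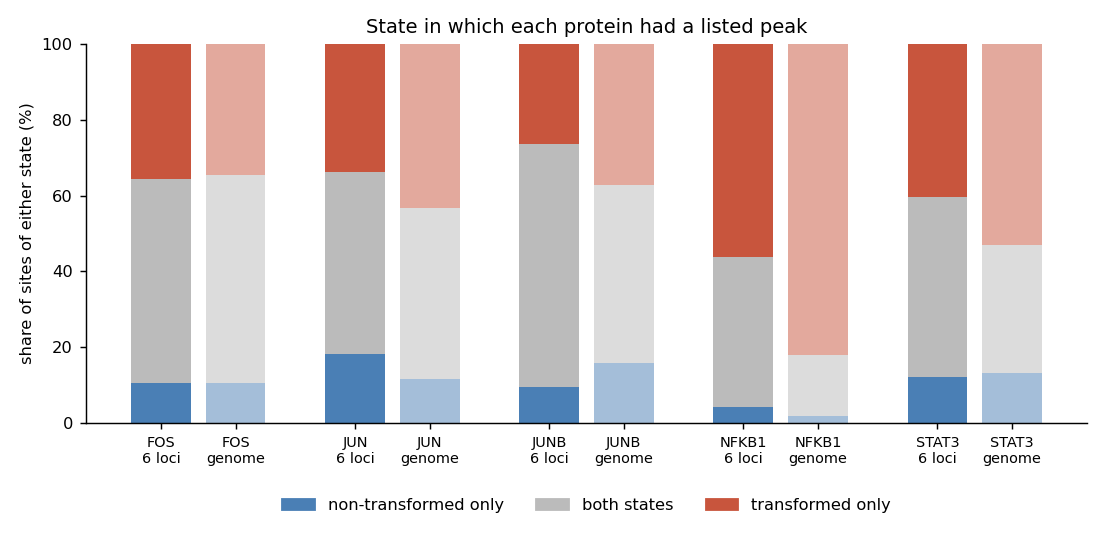
Share of the sites of each protein in percent (vertical axis) that had a peak only in non-transformed cells (blue), in both states (grey), or only in transformed cells (red), for the 6 loci (full colour) beside the genome (pale). The red part is smaller in the 6 loci than in the genome for NFKB1, at 56.2% against 82%, STAT3, at 40.4% against 53%, JUNB, at 26.4% against 37.3%, and JUN, at 33.8% against 43.2%, and about equal for FOS, at 35.7% against 34.5%.

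Sites listed in a single state had lower median levels than shared ones, whichever the state. Among sites only in non-transformed cells, the STAT3 median was 0.732 RPM (n = 7) against 1.37 at shared sites. For FOS it was 0.483 (n = 9) against 1.45. Because each list has a cutoff, weaker sites are more readily listed in 1 state, so this order is not read as an effect of transformation. The 27 NFKB1 sites found only in transformed cells had a median of 0.93 RPM, against 3.0 in the same library at the 19 shared sites. Of the 27, 18 reached the level of the weakest peak in the non-transformed NFKB1 list, and 4 reached the median of that list. The 23 STAT3 sites found only in transformed cells had a median of 1.23 against 2.68 at shared sites, and 18 of them reached the median of the non-transformed list. The strongest new sites were chr12:89768106-89768131 at DUSP6 for NFKB1, with 4.13, and chr5:172160283-172160329 at DUSP1 for STAT3, with 3.57 RPM. Of all 154 cases of a protein listed in a single state, 6 lay inside a longer peak of the same protein in the other state, whose summit was elsewhere. An example is FOS at chr5:172204596-172204829 of DUSP1, with 3.33 RPM in non-transformed cells. The STAT3 level there, 8.92 RPM in transformed cells, was the fourth highest site level of the window.

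Sites with all 5 proteins made up a larger share in the 6 loci than in the genome in non-transformed cells, and DUSP1 and DUSP6 held most of it. In non-transformed cells 78 of the 110 sites had a peak, and 11 of these (14.1%, 8.06 to 23.5%) had all 5 proteins, against 3.68% of such sites in the genome. In transformed cells 24 of 96 sites (25%, 17.4 to 34.5%) had all 5, against 17.4%, which is at the edge of the interval. The count of non-transformed cells rests on weak peaks: with peaks of a −log10 q-value of at least 10, 1 site had all 5 proteins there and 16 did in transformed cells, and with peaks of at least 2 RPM it was 0 and 6. DUSP1 held 8 of the 11 and 13 of the 24, and DUSP6 held 2 and 6. In the 5 windows without DUSP1 the shares were 3 of 53 (5.66%, 1.94 to 15.4%) and 11 of 64 (17.2%, 9.88 to 28.2%), near those of the genome. DUSP4, SPRY2, and SPRY4 had no such site in non-transformed cells and 1 each in transformed cells. These were chr8:29198865-29198972, chr13:80953550-80953609, and chr5:141722005-141722501. The share of sites with a single protein went from 38.5% (49.1% in the genome) in non-transformed to 24.0% (40%) in transformed cells.

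**Figure D5:**
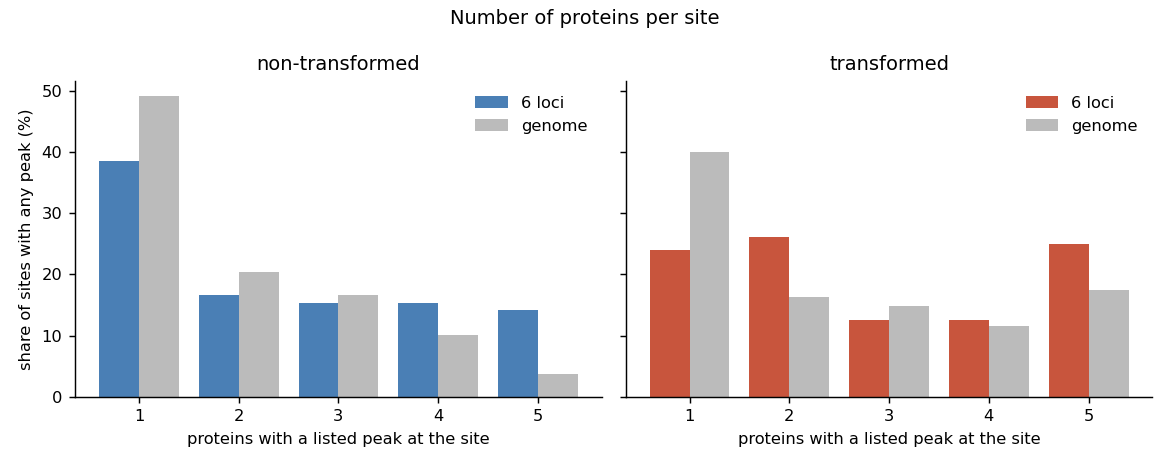
Share of sites with any peak (vertical axis, percent) by the number of the 5 proteins listed at the site (horizontal axis), in non-transformed (left) and transformed cells (right), for the 6 loci in colour and the genome in grey. Sites of all 5 proteins make up 14.1% against 3.68% in non-transformed and 25% against 17.4% in transformed cells.

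STAT3 and NFKB1 sat mostly at AP-1 sites, as in the genome. Of the STAT3 sites, 27 of 34 (79.4%, 63.2 to 89.7%) in non-transformed and 47 of 50 (94.0%, 83.8 to 97.9%) in transformed cells had FOS, JUN, or JUNB, against 80.8% and 88.1% in the genome. With summit windows of 25 bp on each side in place of 150 bp, the shares were 55.3% and 66.1%. The order of the states turned with stricter peaks. The shares were 100% and 82.4% with a −log10 q-value of at least 10, and 80% and 60.9% with at least 2 RPM. Genome shares were not computed for the narrower windows or the stricter peaks, so these changes are not read as a trait of the 6 loci. Of the NFKB1 sites, 18 of 21 (85.7%, 65.4 to 95%) and 38 of 46 (82.6%, 69.3 to 90.9%) had AP-1, against 86.5% and 86.2%. At DUSP1, 15 of 16 and 20 of 20 STAT3 sites had AP-1, and at DUSP6 7 of 7 and 9 of 9. At DUSP4 it was 0 of 2 and 5 of 7, and at SPRY4 1 of 3 and 6 of 6. Of the 23 STAT3 sites listed only in transformed cells, 14 had AP-1 already in non-transformed cells (60.9%, against 62.7% in the genome). Of the 27 such NFKB1 sites it was 15 (55.6%, 37.3 to 72.4%, against 73.6%). The genome share lay just above this interval, and the difference was not tested. Among NFKB1 sites of transformed cells, 6 had no other protein and 2 had STAT3 alone beside it. These were 6.25% and 2.08% of the sites with any peak in that state, against 4.21% and 0.407% in the genome.

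Within shared sites the median distance between summits was smallest for FOS and JUNB, with intervals that overlap those of other pairs, and differences between pairs were not tested. The median distance between the FOS and JUNB summits was 16 bp (10 to 25 bp, n = 35 sites) in non-transformed and 11.5 bp (7 to 22 bp, n = 42) in transformed cells, against 17 bp in the genome in both states. FOS and JUN summits lay a median of 34 bp (17 to 50 bp, n = 35) apart in non-transformed and 23 bp (13 to 33 bp, n = 51) in transformed cells, against 24 and 18 bp in the genome. Those of JUN and JUNB lay 29 bp (14 to 51 bp, n = 27) and 17 bp (11 to 27 bp, n = 37) apart, against 24 and 18 bp. For NFKB1 and FOS the distances were 47 bp (23 to 75 bp, n = 17) and 28 bp (17 to 56 bp, n = 35), against 37 and 27 bp. STAT3 summits lay a median of 56 bp (26 to 75 bp, n = 25) and 45 bp (29 to 71 bp, n = 43) from those of FOS, against 39 and 25 bp. STAT3 and NFKB1 summits were 52 bp (22 to 128 bp, n = 17) and 76 bp (26 to 134 bp, n = 35) apart, against 42 and 31 bp. Between states, the summits of 1 protein lay a median of 14 bp apart for FOS (n = 45), 16 bp for JUNB (n = 34), 24 bp for NFKB1 (n = 19), 27.5 bp for JUN (n = 34), and 36 bp for STAT3 (n = 27). The genome medians were 15, 19, 25, 23, and 29 bp, respectively. At the strongest DUSP1 site, the STAT3 summit was at 172225656 in non-transformed and 172225468 in transformed cells, while the FOS summits were at 172225634 and 172225598.

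The leading library, the one with the highest RPM, differed among sites. STAT3 in transformed cells led 26 of the 110 sites, FOS led 17 in non-transformed and 15 in transformed cells, and JUN in transformed cells led 13. NFKB1 led 12 in transformed and 4 in non-transformed cells, and JUNB led 6 in non-transformed and 2 in transformed cells. JUN in non-transformed cells led 9 and STAT3 in non-transformed cells led 6. Of the 10 sites in all 10 lists, 5 were led by STAT3 in transformed cells, all at DUSP1, and the 2 at DUSP6 were led by NFKB1 in transformed cells. Scaled pileups of different antibodies are not on a common scale of occupancy, so this order describes scaled signal and not the amount of each protein on DNA. The median level over the whole list was 1.23 RPM for STAT3 and 0.725 for FOS, both in transformed cells. Leading libraries were not counted over the genome, so these counts are not read as a trait of the 6 loci.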

How the data were processed

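The processed files are 10 peak lists, 1 per protein and state, grouped by the sample labels. Peaks were called by the authors, library by library, with MACS 2.0.10.20131216 on uniquely aligned 36 bp reads without a control library, with a local background over 1000000 bp, at most 1 read kept per position, and a cutoff of 0.05 on the q-value. The submitters' processing notes name Bowtie, MACS2, and hg19. In the deposited lists the pileup is the signal, extended reads over the summit, not scaled by depth. The deposited significance is the −log10 of the p-value and q-value, and the deposited fold enrichment is the ratio of pileup to local background. Positions are as deposited. Peaks run past the ends of GRCh38 chromosomes on 16 of 25 chromosomes, so no sequence or gene was read from that build at a peak, and distances to gene starts were not computed.

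Pileup was scaled to 1000000 filtered reads (RPM). Sites are joined summit windows (150 bp on each side, overlap of at least 1 bp), and the value of a list at a site is its highest pileup. A ratio can therefore compare different positions within a joined site. Ratios have exact conditional binomial 95% intervals, shares Wilson intervals, and medians order-statistic intervals. Depth, from 4837474 to 22082403 reads, sets what is listed: 1 read is 0.0453 to 0.207 RPM. A call is a ratio of at least 2 or at most 0.5. Sites named are the 3 with the highest scaled pileup of each locus, the sites in all 10 lists where a locus has at most 3, and the site with the highest and lowest ratio per protein. Other sites were named after their values were seen. The members, windows, and motifs were chosen with earlier results of these data known. No test between states was possible with 1 library per group. The alternatives were narrower windows, whole peaks, stricter peaks, wider loci, the fold enrichment, and a scaling to the genome median. Computations used Python 3.11.15, numpy 2.4.6, pandas 2.3.3, and scipy 1.17.1, and the code was tested on simulated data.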

Additional observations from a re-analysis of the deposited data

How the results depend on the processing

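The results were recomputed under 8 alternatives, which gave 114 values. Of these, 68 kept their side of 1 and stayed within 1.5 times the reported count or within the reported interval, 42 moved further, and 4 crossed to the other side of 1. Windows of 75 bp and whole peaks moved nothing, and loci widened by 20 kb moved only the JUNB median, to 0.967. With windows of 25 bp there were 183 sites, 37 STAT3 sites in transformed cells only, 13 sites with all 5 proteins in transformed cells, and AP-1 at 55.3% of STAT3 sites in non-transformed and 66.1% in transformed cells. With peaks of a −log10 q-value of at least 10 there were 64 sites, with 35 STAT3, 26 NFKB1, 49 FOS, 33 JUN, and 33 JUNB peaks in transformed cells and 14 STAT3, 8 NFKB1, 19 JUN, and 21 JUNB peaks in non-transformed cells. There was then 1 site with all 5 proteins in non-transformed cells, AP-1 was at 100% and 82.4% of STAT3 sites in the 2 states, and 13 FOS and 15 JUN sites were in transformed cells only. With peaks of at least 2 RPM there were 34 sites, with 10 STAT3, 11 NFKB1, 19 FOS, 1 JUN, and 12 JUNB peaks in non-transformed and 23 STAT3, 16 NFKB1, 14 FOS, 11 JUN, and 14 JUNB peaks in transformed cells. Sites with all 5 proteins then numbered 0 in non-transformed and 6 in transformed cells, AP-1 was at 60.9% of STAT3 sites of transformed cells, the JUNB median was 0.962, and 1 FOS, 11 JUN, 4 JUNB, 6 NFKB1, and 13 STAT3 sites were in transformed cells only. With the fold enrichment of MACS, the FOS median was 1.03 and that of NFKB1 1.74, above STAT3 at 1.60 and JUN at 1.45. Scaled to the genome, the medians were 1.04 for FOS, 1.13 for NFKB1, 1.14 for JUN, and 1.17 for STAT3. Fewer peaks or narrower windows set the counts under the stricter settings, and the cause of the other changes was not tested. No replicate could be left out, since each group is 1 library. Depth limits the NFKB1 list of non-transformed cells most, where 1 read is 0.207 RPM.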
